A study of Mus musculus with 4 samples.

Results

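The exon junction complex genes described here are 10 of the 26433 genes in the table of read counts: Eif4a3, Magoh, Rbm8a, Casc3, Rnps1, Acin1, Sap18, Pnn, Upf1 and Gm9825, a processed pseudogene of Rnps1. They were found by gene name, and all 10 were in the table and passed its filter on low counts. Rnps1 and Gm9825 were chosen from their own difference between the groups, so their values are given as a description without a test. The other 8 were chosen by their place in the complex. Total RNA was sequenced from the cerebral cortex of E15 mouse embryos (day 15 of gestation) of the C57BL/6 strain, with 2 libraries of serpina3 conditional knock-in mice (Serpina3/+;Nestin-Cre, here cKI f/+, named KI2 and KI3) and 2 of wild-type (WT) littermates (WT1 and WT3). In cKI f/+ mice a CAG promoter in the Rosa26 locus drives flag-tagged human SERPINA3 once Nestin-Cre has removed a loxP-flanked STOP, in Nestin-positive cells and their progeny. Founders were mated with B6D2F2 mice, and their offspring with Nestin-Cre mice on a C57BL/6 background. It was not given which of these alleles the WT littermates carry or whether libraries came from separate litters, so p-values measure the spread between these libraries, which may be technical. The human transcript itself was not analysed here, so genotype was not checked by it.

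The exon junction complex is laid down on spliced messenger RNA just upstream of each exon junction and stays there until the first round of translation. Eif4a3, a DEAD-box helicase, clamps the RNA, the heterodimer of Magoh and Rbm8a locks the clamp, and Casc3 binds it from outside. Rnps1 joins with Sap18 and either Acin1 or Pnn in peripheral complexes (ASAP and PSAP) that take part in splicing, and Upf1 is the helicase at the centre of nonsense-mediated decay (NMD), the pathway that removes messages with a stop codon upstream of such a junction. In the developing mouse cortex, reduced dosage of Magoh, Rbm8a or Eif4a3 is known to deplete progenitors and to give a small brain, with activation of p53.

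Over the stretch they share, Rnps1 and its copy could be told apart at few positions. Rnps1 (ENSMUSG00000034681) lies on chromosome 17 from 24414675 to 24425895 on the plus strand of GRCm38, and Gm9825 (ENSMUSG00000096403) on chromosome 6 from 7982541 to 7983383 on the minus strand, annotated as a processed pseudogene with no intron. The 843 bases of Gm9825 aligned without a gap to the coding sequence of transcript Rnps1-201, from within exon 3 to exon 8 of its 8 exons. They matched at 838 bases (99.4%) and differed at 5. As annotated, the copy lacked the first 72 of the 918 coding bases, start codon included, and the stop codon. The sequence of chromosome 6 on either side of the annotated copy was not compared with Rnps1. The annotated copy covered bases 255 to 1097 of the 1816 in Rnps1-201. Rnps1 reads wholly outside these have no counterpart within the annotated copy, and whether the likeness goes beyond its ends was not examined. Of the 5 differences, 4 fell at the third position of a codon and 1 at the second. The stretches around all 5 are shown because reads within the aligned part tell copy and parent gene apart only where they cover a differing base. Each is written 5′ to 3′ on the strand of the gene, from GENCODE M21 transcripts of the C57BL/6J reference, with the differing bases in capitals.
Rnps1, exon 4, chr17:24420206-24420241, plus strand: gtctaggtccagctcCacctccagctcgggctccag
Gm9825, chr6:7983193-7983228, minus strand: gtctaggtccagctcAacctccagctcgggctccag
Rnps1, exon 4, chr17:24420290-24420330, plus strand: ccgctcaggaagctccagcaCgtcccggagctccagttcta
Gm9825, chr6:7983104-7983144, minus strand: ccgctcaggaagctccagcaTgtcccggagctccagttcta
Rnps1, exon 6, chr17:24422168-24422229, plus strand: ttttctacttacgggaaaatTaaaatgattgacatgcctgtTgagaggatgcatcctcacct
Gm9825, chr6:7982854-7982915, minus strand: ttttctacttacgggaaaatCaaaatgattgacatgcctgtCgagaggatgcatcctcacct
Rnps1, exon 7, chr17:24424461-24424501, plus strand: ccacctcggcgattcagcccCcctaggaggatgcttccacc
Gm9825, chr6:7982680-7982720, minus strand: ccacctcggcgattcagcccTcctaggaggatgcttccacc

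Between the differing bases the pair was identical over stretches of up to 228 bases. Of all windows of 50 bases in Gm9825, 72.2% also occurred in a transcript of Rnps1, as did 44.9% of windows of 100 bases and 19.3% of windows of 150 bases. The read length is not given in the sources used here. The labels list TopHat2 and HTSeq, and how reads that align equally well to both loci were counted is not stated, so the counts of the pair are uncertain. These sequences are those of the reference strain, and the sequence of the libraries themselves was not analysed here.

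**Figure D1:**
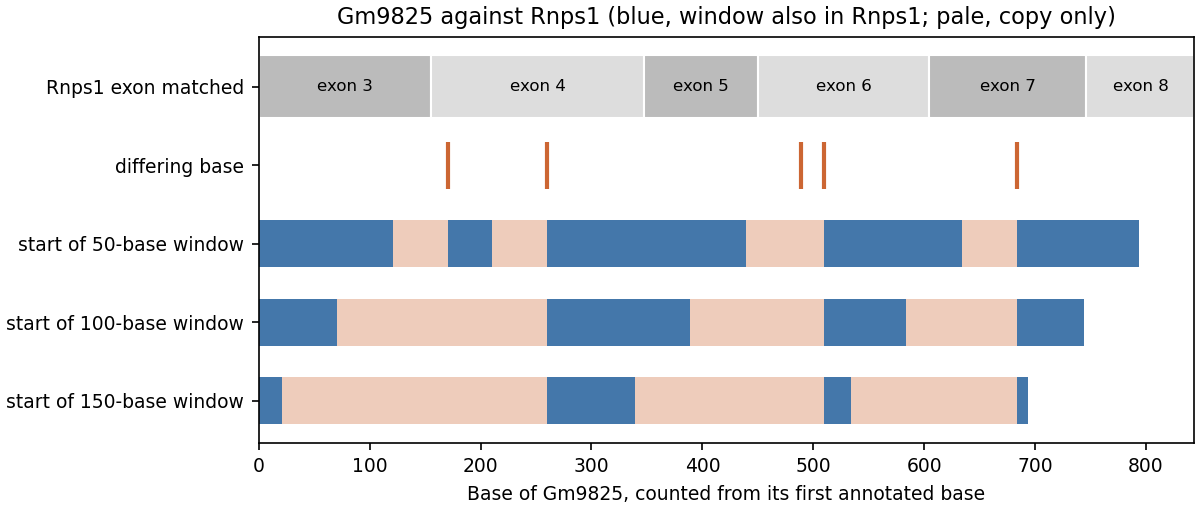
Map of Gm9825 along its 843 bases (x axis, base of the copy). The top bar gives the matching exon of Rnps1, the ticks the 5 differing bases, and the lower bars whether a window of 50, 100 or 150 bases that starts there also occurs in Rnps1 (blue) or only in the copy (pale). Blue covers 72.2% of the starts at 50 bases and 19.3% at 150 bases.

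The cKI f/+ libraries held nearly all reads assigned to Gm9825. The copy had 10 reads in WT1 and 7 in WT3, and 965 in KI2 and 977 in KI3. Scaled to the total count of each library (17423512 to 18119444 reads), the counts-per-million values (CPM) were 0.568 and 0.402 in WT, and 54.4 and 53.9 in cKI f/+ mice. The lowest cKI f/+ library was thus far above the highest WT library, and both WT libraries were above the 3 counts taken as the floor of detection. The mean was 0.485 ± 0.117 CPM in WT and 54.2 ± 0.344 CPM in cKI f/+ mice (SD, n = 2 each), a log2 ratio of 6.80. The size of this ratio depended on few WT reads, and it was 7.07 without WT1 and 6.58 without WT3.

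Rnps1 itself went the other way. It had 5345 reads in WT1 and 5380 in WT3, and 3749 in KI2 and 4008 in KI3. These were 303 and 309 CPM in WT, and 211 and 221 CPM in cKI f/+ mice. The groups did not overlap, as in 33.9% of the 15786 genes with enough reads for a test. The mean was 306 ± 3.78 CPM in WT and 216 ± 6.95 CPM in cKI f/+ mice (SD, n = 2 each), a log2 ratio of -0.50 and a difference of -29.3%. Without each library in turn the log2 ratio lay between -0.53 and -0.47.

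With the reads of parent and copy counted together, the difference was smaller but kept its direction. The sum was 304 CPM in WT1, 309 in WT3, 266 in KI2 and 275 in KI3. The 2 groups did not overlap in the sum either, which by itself is common, since 33.9% of the 15786 genes with enough reads lay apart. Its mean was 307 ± 3.66 CPM in WT and 270.4 ± 6.61 CPM in cKI f/+ mice (SD, n = 2 each), a log2 ratio of -0.18 that lay between -0.21 and -0.16 without each library in turn. Mean Rnps1 was lower by 89.8 CPM and mean Gm9825 higher by 53.7 CPM, so that the gain of the copy was 59.8% of the loss of the parent in CPM. How reads that align equally well to both loci were counted is not stated. Such reads may be missing from both counts, so the sum need not hold all reads of the pair.

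The share of the copy in the summed reads was nearly the same in both libraries of a group. It was 20.5% in KI2 (95% Wilson interval 19.3 to 21.6) and 19.6% in KI3 (18.5 to 20.7). In WT it was 0.187% in WT1 (0.101 to 0.343) and 0.130% in WT3 (0.0630 to 0.268). The intervals cover counting error only and overlap between the libraries of a group. Since this is bulk RNA, fewer cells with a transcript and less transcript per cell cannot be told apart.

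**Figure D2:**
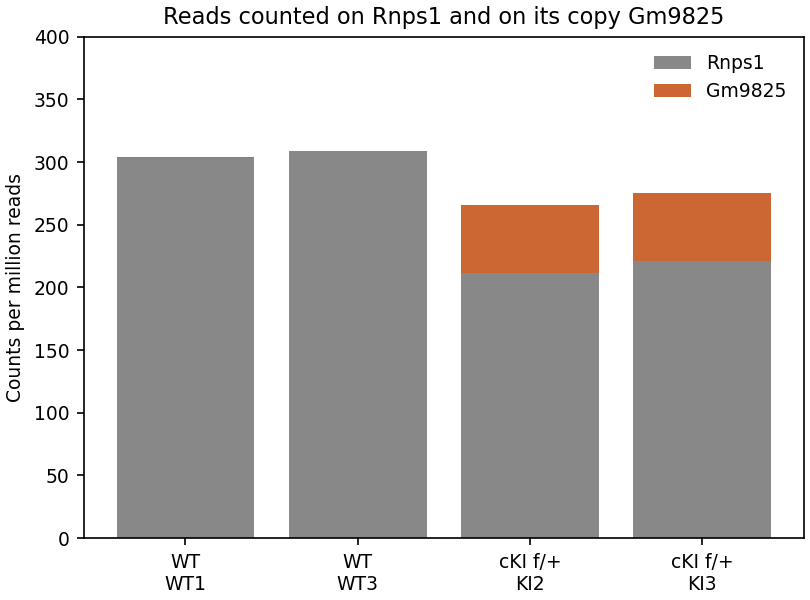
Reads counted on Rnps1 (grey) and Gm9825 (orange), in CPM, one above the other on an axis from 0, in each of the 2 WT and 2 cKI f/+ libraries. The copy makes up 20.5% and 19.6% of the bar in cKI f/+ mice and under 0.2% in WT, and the whole bar is 304 and 309 CPM in WT against 266 and 275 CPM in cKI f/+ mice.

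Other features of the libraries split the same way as genotype. Xist, the transcript of the inactive X chromosome, was counted 13223 and 11882 times in cKI f/+ mice and 5 times in both WT1 and WT3, and Kdm5d of chromosome Y had 0 in both cKI f/+ libraries against 951 and 918, so genotype and these sex-linked transcripts cannot be told apart. Reads were found for all 8 telencephalic markers listed, with summed levels of 3063 to 3135 CPM in cKI f/+ and 3222 to 3267 CPM in WT libraries. The 5 choroid plexus markers, all with reads, summed to 8.34 and 63.6 CPM in KI2 and KI3 against 0.511 and 2.18 CPM in WT1 and WT3, where Ttr was at 0 in WT1 and Kl at 0 in KI3 and WT1. The 6 meningeal markers, all with reads, summed to 19.4 to 21.4 CPM in cKI f/+ and 9.99 to 11.1 CPM in WT libraries, with Lum at 0 in WT1, although Foxc1 of this list was counted 53 and 35 times in WT and 26 and 38 times in cKI f/+ mice. The other lists summed to 217 to 229 CPM in cKI f/+ and 226 to 283 CPM in WT for ventral telencephalon (where Nkx2-1 was counted 6 and 3 times in WT and 19 and 17 times in cKI f/+ mice, and Dlx2 679 and 862 times in WT and 437 and 609 times in cKI f/+ mice), 284 to 431 and 406 to 455 CPM for blood, 22.6 to 25.7 and 27.4 to 28.5 CPM for microglia, and 77.6 to 88.5 and 84.9 to 89.6 CPM for endothelium. The part of these cell types in the results was not tested. Without KI3, which had the most choroid plexus transcripts, the log2 ratio was -0.53 for Rnps1 and 6.81 for Gm9825. The remaining KI2 was still above both WT libraries in these transcripts, and leaving out 1 of 2 libraries moves such a ratio little by construction. These ratios were therefore not read as a check on choroid plexus content.

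The question whether the rest of the complex differed between cKI f/+ and WT mice was asked with edgeR's quasi-likelihood test over all 15786 genes with enough reads. Genes were called at a Benjamini-Hochberg adjusted p under 0.05. None of the 8 other members was called, against 0.12% of all genes tested (19 genes). None had an unadjusted p under 0.05 in edgeR either, against 4.6% of all genes, and DESeq2 called 0 of the 8, against 0.107% of the 22349 genes to which it gave an adjusted p (24 genes). Their log2 fold changes (cKI f/+ against WT) ran from -0.049 to 0.083 with a median of 0.051, beside a median of 0.0043 over all genes tested. Of the 8, 7 were above 0, as were 8082 of all 15786 genes tested. In 2 of the 8, Casc3 and Upf1, both cKI f/+ libraries lay above both WT libraries, and such groups without overlap were found in 33.9% of all genes tested.

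Among the core proteins, Eif4a3 had 145 and 156 CPM in WT1 and WT3, and 143 and 166 CPM in KI2 and KI3. The groups overlapped, and the log2 fold change was 0.044 (95% interval -0.16 to 0.25). Magoh had 63.6 and 65.6 CPM in WT, and 64.0 and 66.1 CPM in cKI f/+ mice, with a log2 fold change of 0.015 (-0.17 to 0.20). Rbm8a, its partner, had 134.5 and 142 CPM in WT, and 133 and 151 CPM in cKI f/+ mice, with a log2 fold change of 0.041 (-0.15 to 0.24). These 3 genes, whose dosage matters for the size of the mouse cortex, thus overlapped between the groups. Casc3, the fourth core protein, had 178 and 174.5 CPM in WT, and 179 and 187 CPM in cKI f/+ mice, with a log2 fold change of 0.058 (-0.11 to 0.23). Its groups did not overlap, but KI2 exceeded WT1 by less than the spread between the WT libraries. The intervals reach at most 0.25 in either direction for the 4 core genes.

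Among the partners of Rnps1, Acin1 of the ASAP complex had the highest count of all members, with 435 and 391 CPM in WT, and 425 and 438 CPM in cKI f/+ mice. Its log2 fold change was 0.070 (95% interval -0.11 to 0.25), and the groups overlapped. Pnn, which takes the place of Acin1 in PSAP, had 211 and 204 CPM in WT, and 194 and 206 CPM in cKI f/+ mice. It was the 1 member of the 8 with a negative log2 fold change, -0.049 (-0.22 to 0.12), and its groups overlapped. Sap18, shared by both complexes, had 88.8 and 94.5 CPM in WT, and 93.8 and 96.3 CPM in cKI f/+ mice, with a log2 fold change of 0.058 (-0.12 to 0.23). Upf1 had 178 and 172 CPM in WT, and 181 and 188 CPM in cKI f/+ mice. Its log2 fold change of 0.083 (-0.087 to 0.25) was the largest of the 8, and the adjusted p in edgeR lay between 0.979 (Upf1) and 0.994 (Magoh) over the 8 genes.

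**Figure D3:**
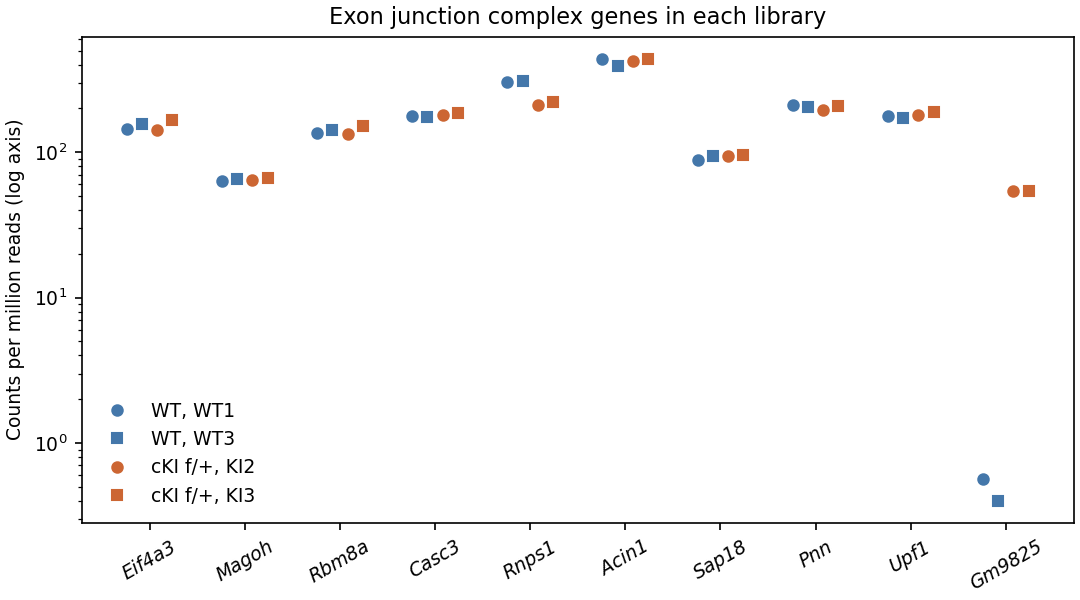
CPM (log axis) of the 10 members in each library, WT in blue and cKI f/+ in orange, with a circle and a square for the 2 libraries of a group. The groups lie apart by eye at Rnps1 (303 and 309 CPM against 211 and 221) and at Gm9825 (0.568 and 0.402 CPM against 54.4 and 53.9), and close together at the other 8.

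Levels between members were compared per kilobase of annotated exon, as means of the 4 libraries. Magoh was highest at 84.2 ± 1.57 CPM per kilobase and Eif4a3 next at 71.8 ± 5.06 (SD, n = 4 each), and these did not overlap. Rbm8a (43.6 ± 2.64), Casc3 (41.7 ± 1.22), Acin1 (40.1 ± 2.07) and Upf1 (39.0 ± 1.45) followed, and neighbours in this order overlapped in their range over the libraries. Pnn was at 35.4 ± 1.25 CPM per kilobase, below Upf1 without overlap, and Sap18 was lowest at 17.2 ± 0.592. Rnps1 was at 59.1 and 60.2 CPM per kilobase in WT, and 41.2 and 43.1 in cKI f/+ mice. The order depended on the gene model. Divided by the longest coding transcript instead, Rnps1 came first at 136.0 CPM per kilobase, before Eif4a3 at 101.0, Magoh at 93.7 and Acin1 at 89.2, while Sap18 stayed lowest at 18.2. Gm9825 reached 64.5 and 64.0 CPM per kilobase in cKI f/+ mice, above Rnps1 in the same libraries by the first measure. That measure divides Rnps1 by 5131 bases of exon and the copy by 843. The second divides Rnps1 by 1920 bases and has no value for the copy, so this order also rests on the gene model.

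Sap18 also has a copy that can share its reads. Sap18b, on chromosome 8 from 95825346 to 95826134, is annotated as a protein-coding gene of 789 bases that differed from Sap18 at 5 bases, and 98.7% of its windows of 100 bases occurred in Sap18. Its counts are therefore uncertain. It had 256 and 303 reads in WT, and 324 and 370 in cKI f/+ mice, which did not overlap, and a log2 fold change of 0.28 (standard error 0.14, edgeR adjusted p = 0.969). With its reads added to Sap18, the log2 fold change of Sap18 was 0.093 (edgeR adjusted p = 0.975). The third copy found, Gm24303, shares 56.2% of its 31-base words with Pnn and had 3 reads in the 4 libraries. No copy was found for the other 6 of these members by the criterion of 50% shared words.

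The proteins that work beside the complex were read from lists of genes. Of 11 genes that assemble, remove or bind the complex or carry its message out of the nucleus, 10 were tested. Of these, 0 were called by edgeR, with 0 at an unadjusted p under 0.05 and 0 called by DESeq2. Over all genes, edgeR called 0.12%, 4.6% had an unadjusted p under 0.05, and DESeq2 called 0.107%. At these shares, 0 in a list this short, or in the lists below, does not set it apart from other genes. The median log2 fold change of these 10 was 0.027. The 2 with the largest positive values were Sap18b and Magohb, a paralog of Magoh (0.086, standard error 0.14). The 2 with the largest negative values were Cwc22, which brings Eif4a3 to the spliceosome (-0.19, standard error 0.099), and Upf3b, which links the complex to NMD (-0.098, standard error 0.085). Upf3b lies on chromosome X. Cwc22 had 747 and 728 reads in WT, and 686 and 630 in cKI f/+ mice, groups that did not overlap.

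Of 17 genes of the NMD machinery, all were tested and 0 were called by edgeR or by DESeq2 (0.12% and 0.107% of all genes). Unadjusted edgeR p was under 0.05 for 0 of the 17 (4.6% of all genes). Their log2 fold changes had a median of -0.016. The extremes were Smg1, the kinase of Upf1 (-0.14, standard error 0.11), and Nbas (-0.13, standard error 0.12) on one side, and the decapping enzyme Dcp2 (0.13, standard error 0.086) and the helicase Dhx34 (0.11, standard error 0.11) on the other. The negative values rested on single libraries, since Smg1 was at -0.00012 without WT1 and -0.28 without KI2, and Nbas at -0.0040 without KI3 and -0.27 without KI2. Of 13 SR proteins and relatives, which bind exons and act in splicing beside Rnps1, again 0 were called by edgeR or DESeq2. The shares over all genes were again 0.12% and 0.107%. Of the 13, 0 had an unadjusted edgeR p under 0.05, against 4.6% of all genes, and the median log2 fold change was 0.0021. Srsf10 (-0.15, standard error 0.091) and Srsf1 (-0.10, standard error 0.071) were lowest, and Srsf9 (0.14, standard error 0.088) and Srrm2 (0.029, standard error 0.097) highest.

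Transcripts that NMD is known to degrade came next. Of 12 such transcripts, host genes of small nucleolar RNAs and stress genes, 0 were called by edgeR or DESeq2 (0.12% and 0.107% of all genes). Unadjusted edgeR p was under 0.05 for 0 of the 12 (4.6% of all genes). Their median log2 fold change was 0.052, beside 0.0043 over all genes tested. Of the 12, 9 were above 0, as were 8082 of all 15786 genes tested. The groups lay apart in 2 of the 12 (16.7%), against 33.9% of all genes. Snhg12 had 377 and 398 reads in WT, and 467 and 446 in cKI f/+ mice. Its groups did not overlap, and its log2 fold change was 0.21 (standard error 0.11). Snhg6 followed at 0.20 (standard error 0.12), while Gadd45a (-0.10, standard error 0.30) and Snhg8 (-0.028, standard error 0.14) were lowest.

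Targets of p53 are known to rise when a core member is lost in the cortex. Of 12 targets, 0 were called by edgeR or DESeq2, against 0.12% and 0.107% of all genes. Unadjusted edgeR p was under 0.05 for 2 (16.7%), against 4.6% of all genes. This count was 0 without KI3 or without WT1, 1 without KI2 and 3 without WT3. One of the 2 was Cdkn1a, which encodes the cell cycle inhibitor p21, with 140 and 194 reads in WT, and 201 and 330 in cKI f/+ mice. Its groups lay apart, and its log2 fold change was 0.64 (standard error 0.24, edgeR adjusted p = 0.969). Its size depended on single libraries, at 0.26 without KI3, 0.41 without WT1, 0.90 without WT3 and 0.92 without KI2. The other was Pmaip1, which encodes the death protein Noxa and went the opposite way, with 26 and 20 reads in WT, and 10 in each cKI f/+ library. Its log2 fold change was -1.22 (standard error 0.42, edgeR adjusted p = 0.969). Eda2r of chromosome X (0.50, standard error 0.36, and 0.13 without WT1) was the next highest and Trp53inp1 (-0.18, standard error 0.081) the next lowest. The groups did not overlap for 8 of the 12 targets, 4 higher and 4 lower in cKI f/+ mice, where 33.9% of all genes lay apart, and the median log2 fold change of the list was 0.060.

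**Figure D4:**
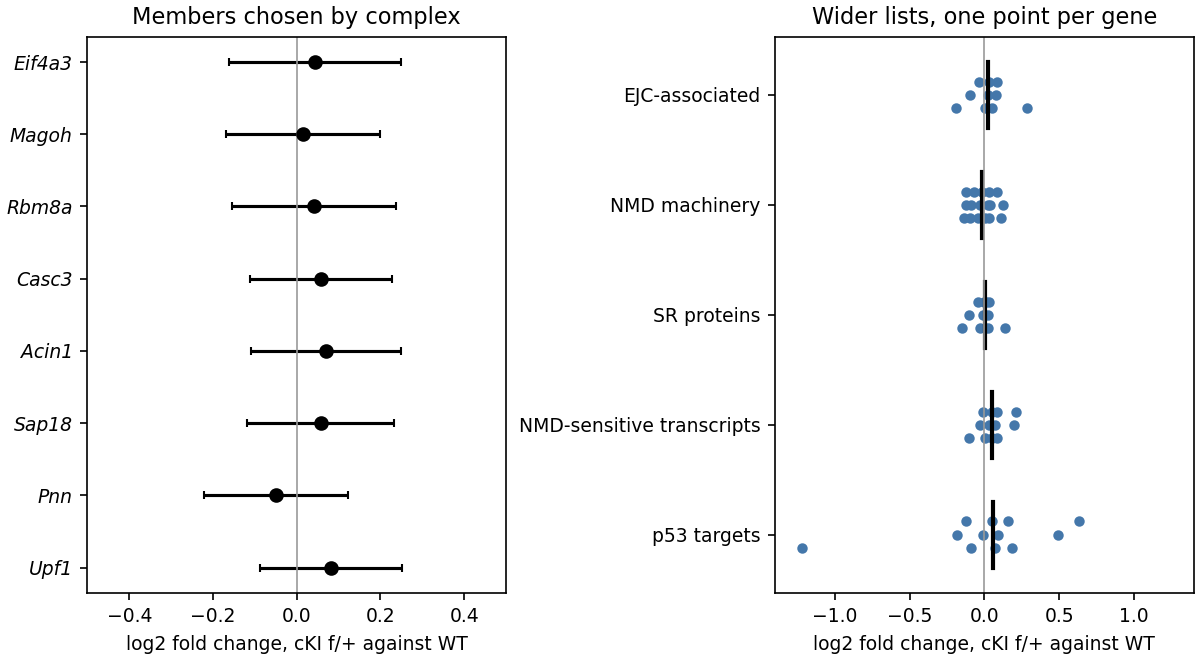
Log2 fold changes of cKI f/+ against WT (x axis, 0 at the grey line). On the left, the 8 members chosen by complex with their 95% intervals from the edgeR fit, all of which include 0. On the right, 1 point per tested gene of 5 wider lists, with a bar at the median, which lies between -0.016 and 0.060 in every list.

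The genes around the pair were read next. The 10 tested genes nearest to Rnps1 on chromosome 17, Tbc1d24, 1600002H07Rik, Ccnf, Abca3 and D330041H03Rik before it and Eci1, Dnase1l2, E4f1, Pgp and Mlst8 after it, held 0 genes called by edgeR or DESeq2. Their median log2 fold change was 0.028, and 6 were above 0. Over all genes, edgeR called 0.12%, DESeq2 called 0.107%, and 8082 of the 15786 tested were above 0. Pgp had 535 and 518 reads in WT, and 598 and 691 in cKI f/+ mice, with a log2 fold change of 0.26 (standard error 0.10) and an adjusted p of 0.969 in edgeR. D330041H03Rik, a noncoding gene on the opposite strand, lies just before Rnps1, from 24404649 to 24414542. It had 93 and 79 reads in WT, and 68 and 54 in cKI f/+ mice. Its log2 fold change was -0.52 (standard error 0.23), close to that of Rnps1 alone, and its adjusted p in edgeR was 0.969. Tbc1d24 and Pgp had an unadjusted edgeR p under 0.05, one on each side of 0, which is 20% of the 10 against 4.6% of all genes tested.

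Around Gm9825 on chromosome 6, the tested genes were Dlx6, Dlx5, Sdhaf3, Asns and C1galt1 before it and Col28a1, Mios, Rpa3, Umad1 and A430035B10Rik after it. Both edgeR and DESeq2 called 0 of these 10 (0.12% and 0.107% of all genes). Unadjusted edgeR p was under 0.05 for 0 of the 10 (4.6% of all genes). Their log2 fold changes ran from -0.56 (Dlx6, which like Dlx5 marks the ventral telencephalon) to 0.27 (Col28a1) with a median of -0.15, and 3 were above 0. None came near the log2 ratio of 6.80 of the copy between them. Col28a1, the nearest of the tested genes, had 11 and 6 reads in WT, and 10 and 11 in cKI f/+ mice.

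**Figure D5:**
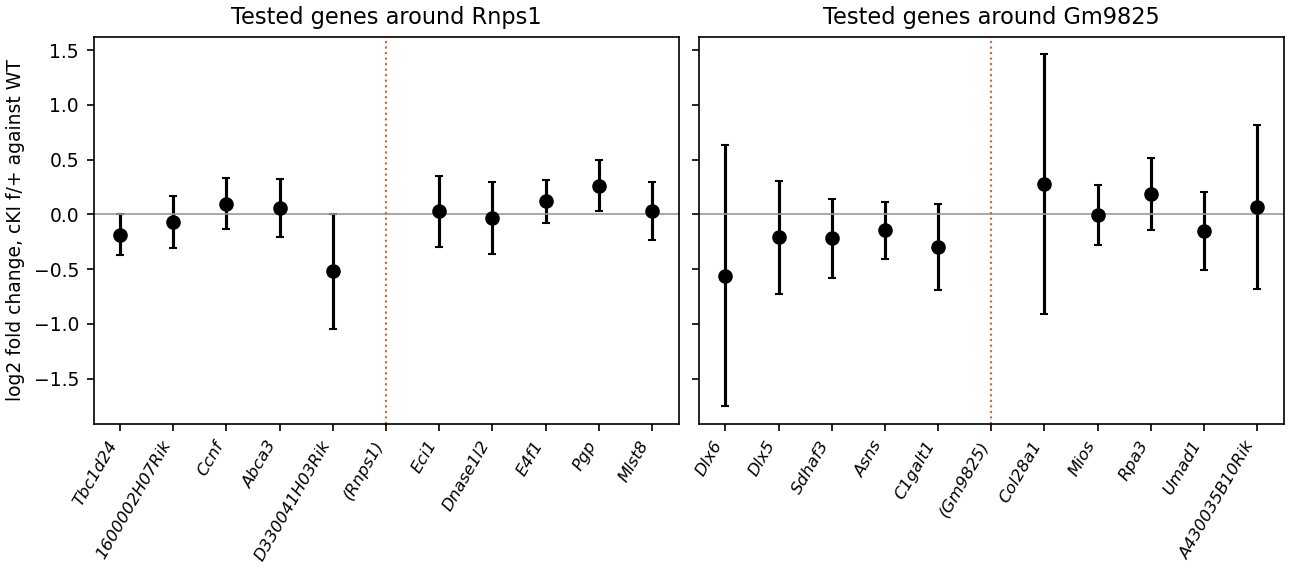
Log2 fold change of cKI f/+ against WT (y axis) with 95% intervals from the edgeR fit, for the 5 tested genes on each side of Rnps1 (left) and of Gm9825 (right) in chromosomal order. The dotted line marks the place of the gene itself, which is not plotted. Values run from -0.52 to 0.26 around Rnps1 and from -0.56 to 0.27 around Gm9825.

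Likeness of pattern was measured as the Euclidean distance between log2 CPM values centred over the 4 libraries. Nearest to Gm9825 was Gm15487, at a distance of 0.35, another processed pseudogene on chromosome 6 with 10 and 3 reads in WT, and 934 and 959 in cKI f/+ mice. The next were further off, with Ttr, the choroid plexus transcript named above, at 2.29 and Gm13443, a processed pseudogene on chromosome 2, at 2.50. Ttr had 0 and 4 reads in WT, and 116 and 956 in cKI f/+ mice, so its cKI f/+ libraries differed where those of Gm9825 did not. Nearest to Rnps1 were Gm13199 at 0.029, Gm37534 at 0.034 and Mettl23 at 0.056. Mettl23 had 582 and 585 reads in WT, and 425 and 436 in cKI f/+ mice, while the other 2 had at most 41 reads in any library. At such low levels the 0.5 CPM added before the logarithm weighs on the distance, and Gm37534, with 10 reads in each WT library and 4 and 5 in cKI f/+ mice, had a fitted log2 fold change of -1.16 where the log2 ratio of Rnps1 was -0.50.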

How the data were processed

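RNA was extracted with TRIzol and sequenced on a HiSeq instrument. One table deposited by the authors holds whole-number read counts of each gene in 4 libraries. The labels speak of triplicates, of which 2 a genotype were analysed here. The submitters' processing notes list Bowtie2 2.2.3, TopHat2 2.0.12, HTSeq 0.6.0 and the build mm9, whereas the table places genes on GRCm38. Strand and read length are not given in the sources used here. The column names gave the genotype of each library but not which labelled sample it was. The table also holds the authors' fold change, p-value and related columns, which were not used. Counts were fitted in R 4.3.3 with edgeR 4.0.16 (default expression filter, TMM, quasi-likelihood test, Benjamini-Hochberg adjustment over all genes tested), checked on simulated data. Alternatives were DESeq2 1.42.0, its size factors in edgeR, a looser and a stricter filter on low counts, the table without chromosomes X and Y, the reads of copies added to their parents, and each library left out in turn. The standard error is the log2 fold change divided by the square root of F. CPM values printed are counts over library totals. With 2 libraries against 2, an exact two-sided permutation test of a single gene cannot go below p = 0.333, so the p-values rest on a spread shared across genes (biological coefficient of variation 8.72%). At this depth 3 counts are 0.166 to 0.172 CPM.

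Copies were genes of the table whose GENCODE M21 transcripts share at least 50% of their 31-base words with a member. Likeness of pattern used TMM-scaled CPM with 0.5 added. Named genes were all members, their copies, 5 tested neighbours on each side of Rnps1 and Gm9825, the 2 highest and 2 lowest genes of each list by log2 fold change, the 3 nearest patterns of each of the pair, and markers. The members and lists were chosen with earlier results of these data known.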

Additional observations from a re-analysis of the deposited data

How the results depend on the processing

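None of the 8 members outside the pair was called under any of the 10 alternatives, where the lowest adjusted p was 0.822, and the 5 lists and the neighbours held 0 calls in each. The number of called genes over the whole table was 19. It was 6 with at least 10 counts in every library and 11 without chromosomes X and Y, both of which leave genes out, and between 46 and 71 without each library in turn, where the lone library of a group is assumed to vary like the other group and the cause was not tested. Scaled by DESeq2 size factors, the log2 ratios were -0.50 for Rnps1, 6.81 for Gm9825 and -0.18 for their sum. With 2 libraries a group, leaving out 1 moves such a ratio by less than the SD of the group by construction, so the ranges without each library were not read as a check of these ratios. The sign of some small log2 fold changes that were not called depended on a single library. Of the 8 members, 4 (Casc3, Sap18, Pnn and Upf1) kept the same sign under every setting. Where the sign of a member changed, its values without each library in turn ran from -0.0078 to 0.039 for Magoh, -0.056 to 0.12 for Rbm8a, -0.067 to 0.13 for Eif4a3 and -0.0039 to 0.15 for Acin1. In the lists the ranges were -0.027 to 0.21 for Magohb, -0.021 to 0.22 for Dhx34, -0.11 to 0.18 for Srrm2, -0.52 to 0.20 for Gadd45a and -0.17 to 0.13 for Snhg8. Among neighbours they were -0.025 to 0.19 for Ccnf, -0.089 to 0.22 for Abca3, -0.13 to 0.16 for Eci1, -0.12 to 0.034 for Dnase1l2, -0.097 to 0.17 for Mlst8, -1.15 to 0.40 for Dlx6, -0.51 to 0.13 for Dlx5, -0.084 to 0.76 for Col28a1, -0.16 to 0.12 for Mios, -0.043 to 0.46 for Rpa3 and -0.29 to 0.34 for A430035B10Rik. Ttr was not called with all libraries and was called without any one of them. No paired analysis was possible because the library names of both genotypes have just the number 3 in common, which gives 1 pair, and the labelled sample titles have none. At this depth the level of Gm9825 in WT rests on 10 and 7 reads.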
